A study of Mus musculus with 2 samples.

Results

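The genes described here are 10 oncofetal and liver cancer marker genes, taken by name from the 48526 genes of a table that compares 1 tumor library of WT mice with 1 tumor library of *Fabp4*-/- mice. They are *Afp*, *Gpc3*, *Golm1* and *Spink1*, whose products are secreted or shed, the RNA-binding protein genes *Igf2bp1*, *Igf2bp2* and *Igf2bp3*, the surface marker genes *Prom1* and *Cd24a*, and the desaturase gene *Scd2*. They were found in the table by gene name only, and all 10 are in it. The set itself was chosen with earlier results of these data known. *Fabp4* encodes an intracellular carrier of fatty acids that adipocytes and macrophages make. The mice of both genotypes were male and on a C57BL/6N background, and WT mice were littermates of the knockouts. Both had received DEN, a chemical that causes liver tumors, as a dose of 25 mg/kg on day 14 after birth, and were fed a high-fat diet for 29 weeks from the age of 6 weeks, so that carcinogen and diet are shared and only the *Fabp4* genotype differs by design. The material was tumor nodules cut from the liver, and the comparison holds tumors only, with no liver outside a tumor. The number of mice or nodules behind each library is, in the sources used here, not given.

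Oncofetal genes are transcribed in the fetal liver, are shut down after birth and are switched on again in a part of hepatocellular carcinomas. α-Fetoprotein, the albumin-like serum protein of the fetus, is the classical tumor marker of the liver, and in the adult mouse liver its gene is held down by the repressors ZHX2 and ZBTB20. The IGF2BP proteins bind and stabilise growth-related mRNAs in the embryo and in tumors. CD133, the product of *Prom1*, and CD24 are surface proteins by which tumor-initiating cells of the liver have been isolated.

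The WT library held 56353665 estimated read pairs and the *Fabp4*-/- library 59600850, and intervals given here cover counting error only. With 1 library per genotype no difference between genotypes could be tested and no p-value was computed, so every ratio compares 2 libraries. *Fabp4* itself reached 44.1 TPM in WT against 0.03 TPM in *Fabp4*-/-. TPM is the deposited abundance of a gene's transcripts as a share of the library total, scaled to a sum of 1000000, which takes their length into account, and normalised counts are the deposited values on a read scale, whose most frequent value above 0 was taken as 1 read pair to estimate read pairs. For ratios by TPM, 0.5 was added to each level, and the log2 of *Fabp4*-/- divided by WT was taken. The median ratio of the 13557 genes that reached 1 TPM in either library was −0.46 by TPM and 0.04 by normalised counts, so each member is read against these medians. Hepatocyte genes dominated both libraries, since the 11 hepatocyte markers in the table summed to 156698 TPM in WT against 202486 TPM in *Fabp4*-/- and none was at 0. *Alb*, the albumin gene, alone had 49157 TPM in WT against 65262 TPM in *Fabp4*-/-.

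The sequences before the start sites of *Afp* and *Gpc3* are shown because these were the most abundant members in WT and lay far apart in their ratio. They are the 250 bases before the RefSeq start of each gene (GRCm38.p6), 5′ to 3′ on the strand of the gene. *Afp* lies on the plus strand at chr5:90490464-90490713 and *Gpc3* on the minus strand at chrX:52613975-52614224. Capitals mark matches, on either strand, to 5 motifs, namely the TATA box with the letters TATAAA, one arm of the HNF1 palindrome with GTTAAT, the core of C/EBP sites with TTGCNNAA, the core of FOXA sites with TGTTTNC and the core of TCF/LEF sites with CTTTGAT.
Afp: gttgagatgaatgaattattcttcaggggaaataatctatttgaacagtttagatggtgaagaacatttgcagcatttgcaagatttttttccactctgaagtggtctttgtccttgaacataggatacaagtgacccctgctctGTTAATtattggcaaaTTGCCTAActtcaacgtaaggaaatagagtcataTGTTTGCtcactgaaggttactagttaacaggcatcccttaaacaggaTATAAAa
Gpc3: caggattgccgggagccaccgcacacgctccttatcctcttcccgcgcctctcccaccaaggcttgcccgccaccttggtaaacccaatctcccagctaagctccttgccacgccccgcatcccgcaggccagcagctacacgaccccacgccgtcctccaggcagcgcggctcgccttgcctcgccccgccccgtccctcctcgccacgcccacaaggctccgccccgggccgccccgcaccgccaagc

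The *Afp* window held 4 matches, 1 each to the TATA, HNF1, C/EBP and FOXA letters, all on the strand of the gene and none overlapping another. The TATA match ended 25 bases before the *Afp* start in the deposited table, which lies downstream of the RefSeq start. The *Gpc3* window held no match to any of the 5 motifs. Its GC content was 71.6%, against 36.0% for *Afp* and a median of 52.4% over the 32536 different windows of the RefSeq table. Of those windows, 12.3% held the TATA letters, 6.47% the HNF1 letters, 9.57% the C/EBP core, 17.8% the FOXA core and 3.21% the TCF/LEF core. A match describes letters and is not evidence that a factor was bound. Windows were examined for 6 of the 10 members. Member windows on chromosome 18, where *Spink1* lies, were left out of this search, so nothing is said here of *Spink1*. The other 4 of the 6, *Golm1*, *Igf2bp2*, *Igf2bp3* and *Prom1*, held only 1 match between them, to the TATA letters in *Golm1*.

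Among the 7 members that reached 1 TPM in either library, *Gpc3* and *Cd24a* were past 2-fold on the lower side in *Fabp4*-/- by TPM, and no member was past 2-fold on the higher side. By the same measure 14.2% of all 13557 genes were past 2-fold on the lower side and 2.18% on the higher side. By normalised counts the same 2 members were past 2-fold downward and 1, *Scd2*, upward, against 7.74% and 5.86% of all genes. The choice of scale moved the share of lower genes among all those past 2-fold from 86.7% by TPM to 56.9% by normalised counts. The median log2 ratio of the 7 members was −0.21 by TPM and 0.35 by normalised counts, and both lay above the median of all genes on the same scale. *Igf2bp1*, *Igf2bp2* and *Igf2bp3* did not reach 1 TPM in either library.

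**Figure D1:**
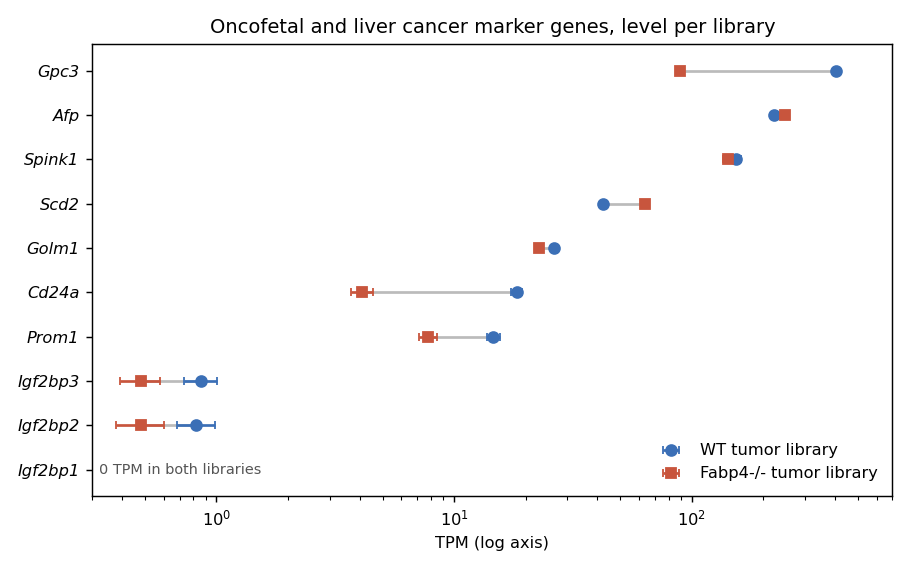
Level of each member in TPM on a log axis, with circles for the WT tumor library, squares for the *Fabp4*-/- tumor library and bars for the 95% counting interval. *Gpc3* leads in WT at 404 TPM and *Afp* leads in *Fabp4*-/- at 247 TPM, and *Igf2bp1* is at 0 TPM in both.

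**Figure D2:**
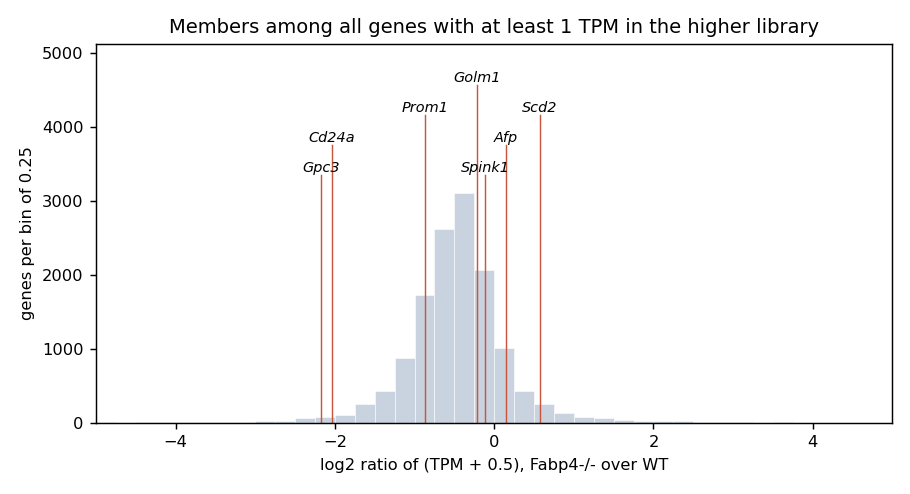
Histogram of the log2 ratio of (TPM + 0.5), *Fabp4*-/- over WT, for the 13557 genes that reached 1 TPM in either library, in bins of 0.25, with the 7 members that reached this level as vertical lines. *Gpc3* at −2.17 and *Cd24a* at −2.03 lie in the lower tail, and *Scd2* at 0.57 lies on the upper side.

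*Afp* (ENSMUSG00000054932.6, chromosome 5, 90490737 to 90508907, plus strand) was abundant in both libraries. Its level was 222 TPM in WT against 247 TPM in *Fabp4*-/-, from 18052 and 22245 estimated read pairs, which is rank 430 and rank 387 among all genes of the library. The *Fabp4*-/- library was thus higher by 1.11-fold in TPM and by 1.59-fold in normalised counts (95% exact binomial CI 1.55 to 1.62). Its log2 ratios of 0.15 and 0.67 exceeded those of 89.6% and 88.4% of all genes. *Alb*, *Gc*, which encodes the vitamin D-binding protein, and *Afm*, which encodes afamin, are its relatives in the albumin family and its neighbours on chromosome 5. They had log2 ratios by TPM of 0.41, 0.42 and 0.29, all higher than that of *Afp*, and none of the 4 family members was past 2-fold on either scale. *Alb* was 221 times as abundant as *Afp* in WT and 264 times in *Fabp4*-/-. *Gm43449*, an antisense gene that overlaps the 3′ end of *Afp*, had 33 estimated read pairs in WT against 19 in *Fabp4*-/-, a small number beside those of *Afp*.

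Regulators of *Afp* were measured in both libraries, and few stood far from the other genes. The list held 13 transcription factors that are known to act on *Afp* in the mouse liver or are relatives of ZHX2. Of these, the TPM scale placed 0 past 2-fold upward and 1, a relative of ZHX2, 2-fold downward. The normalised-count scale placed 2 upward and 0 downward. The median log2 ratio of these factors was −0.67 on the former scale and −0.05 on the latter. *Hnf4a*, *Cebpa* and *Foxa3* were the most abundant, at 171, 108 and 73.2 TPM in WT and 134, 155 and 42.4 TPM in *Fabp4*-/-. The repressor genes *Zhx2* and *Zbtb20*, named after their values were seen, were at 4.23 and 18.0 TPM in WT and 2.35 and 10.6 TPM in *Fabp4*-/-. Their log2 ratios by normalised counts were −0.28 and −0.37. *H19* and *Gpc3* are, with *Afp*, the classical targets of ZHX2, and the log2 ratios of these 3 genes by TPM were 2.97 for *H19*, 0.15 for *Afp* and −2.17 for *Gpc3*.

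*Gpc3* (ENSMUSG00000055653.13, chromosome X, 52272426 to 52613950, minus strand) encodes glypican 3, a heparan sulfate proteoglycan anchored in the cell membrane by a lipid and used as a tissue marker and a therapeutic target in liver cancer. It reached 404 TPM in WT against 89.5 TPM in *Fabp4*-/-, from 37856 and 9641 estimated read pairs. This moved it from rank 275 to rank 905 among all genes. The *Fabp4*-/- level was 4.52-fold lower by TPM and 3.05-fold lower by normalised counts (95% CI 2.98 to 3.12). Only 1.38% of all genes had a lower ratio by TPM, and 3.61% by normalised counts. Within a library, where no scaling between libraries enters, *Gpc3* was at 1.82 times the TPM of *Afp* in WT and 0.362 times in *Fabp4*-/-.

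The other glypican genes were lower in level. *Gpc4*, its neighbour on chromosome X, had 36.2 TPM in WT against 23.4 TPM in *Fabp4*-/-, and its log2 ratio was −0.62 on the TPM scale and −0.06 on that of normalised counts. *Gpc1* was at 7.93 and 10.3 TPM and *Gpc6* at 1.44 and 2.09 TPM. *Gpc2* stayed under 1 TPM, and *Gpc5* was listed at 0 in both libraries. Of the 4 measured glypicans, *Gpc3* alone was past 2-fold downward on both scales, and *Gpc6* was past 2-fold upward by normalised counts.

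**Figure D3:**
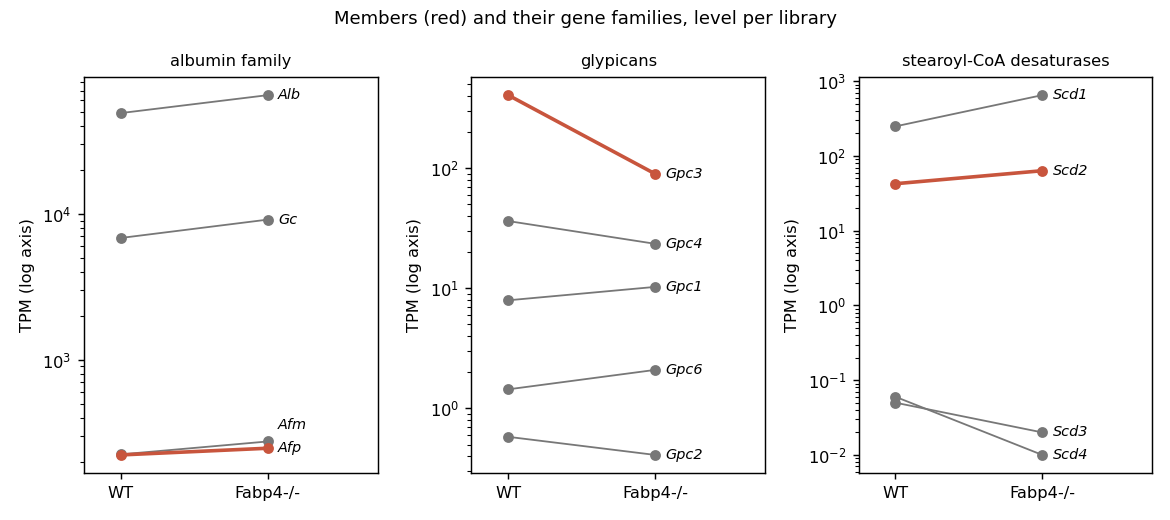
TPM on a log axis in the WT and the *Fabp4*-/- tumor library for the albumin family, the glypicans and the stearoyl-CoA desaturases, with members of the marker set in red and *Gpc5*, listed at 0, left out. *Gpc3* goes from 404 to 89.5 TPM while *Gpc4* goes from 36.2 to 23.4 TPM, and *Scd1* and *Scd2* both lie higher in *Fabp4*-/-.

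*Golm1* (ENSMUSG00000021556.11, chromosome 13, 59634996 to 59675784, minus strand) encodes Golgi membrane protein 1, which is cleaved and found in serum. Its level was 26.4 TPM in WT against 22.7 TPM in *Fabp4*-/-, from 4135 and 4089 estimated read pairs. The sign of the *Golm1* ratio depended on the scale, since its log2 ratio was −0.21 by TPM but 0.35 by normalised counts (95% CI 0.28 to 0.41). Against the all-gene median it lay on the upper side on both scales, above 71.8% and 73.8% of all genes. *Naa35*, the gene that ends 197 bases away on the opposite strand in the deposited coordinates, was at 27.0 and 20.7 TPM. In GENCODE M21 the transcripts of both genes overlap, and 27.4% of the 75-base stretches of *Golm1* transcripts also occur in those of *Naa35*. The strand setting of the counting is, in the sources used here, not given, and reads from this overlap cannot be assigned with certainty. *Casc4*, the paralog of *Golm1*, had 6.34 TPM in WT against 3.33 TPM in *Fabp4*-/-.

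*Spink1* (ENSMUSG00000024503.2, chromosome 18, 43728069 to 43737237, minus strand) encodes a small secreted trypsin inhibitor of the pancreas that is also made by liver tumors. It reached 154 TPM in WT against 142 TPM in *Fabp4*-/-, from 1656 and 1774 estimated read pairs. Its log2 ratio was −0.11 by TPM but 0.46 by normalised counts (95% CI 0.37 to 0.56), so that its sign too turned with the scale. Both values lay above the all-gene median of their scale and exceeded those of 78.5% and 80.4% of all genes. Of 11 other *Spink* genes, 10 were listed at 0 in both libraries, and *Spink5* was at 0.41 and 0.15 TPM. Acinar cells of the pancreas are the main normal source of *Spink1*, and 12 of their markers were examined. Only *Cela1*, at 75.01 and 54.64 TPM, and the lipase gene *Pnliprp1*, at 9.02 and 0.07 TPM, reached 1 TPM. *Cpa1*, *Cpb1* and *Try4*, which encode digestive enzymes, were listed at 0 in both libraries, and *Pnlip*, *Ctrb1*, *Cel* and *Prss2* had at most 2 estimated read pairs in either. The remaining markers were the amylase gene *Amy2a5*, with 47 read pairs in WT against 0 in *Fabp4*-/-, and the elastase genes *Cela2a*, with 22 and 3, and *Cela3b*, with 4 and 0. The 12 markers summed to 85.4 and 54.9 TPM, and the part of such cells in the *Spink1* levels was not tested.

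The 3 genes of the IGF2BP family were low or silent. *Igf2bp1* (ENSMUSG00000013415.9, chromosome 11, 95957163 to 96005940, minus strand) was listed at 0 in both libraries. A count of 0 allows about 3 read pairs per library as a 1-sided 95% limit. *Igf2bp2* (ENSMUSG00000033581.16, chromosome 16, 22059009 to 22163299, minus strand) had 0.82 TPM in WT against 0.48 TPM in *Fabp4*-/-, from 119 and 76 estimated read pairs. *Igf2bp3* (ENSMUSG00000029814.10, chromosome 6, 49085223 to 49214957, minus strand) was at 0.86 and 0.48 TPM, from 154 and 107. These levels did not differ between *Igf2bp2* and *Igf2bp3* beyond their counting intervals in either library. By TPM, without the added 0.5, *Igf2bp2* was 1.71-fold lower in *Fabp4*-/- and *Igf2bp3* 1.79-fold lower. The 95% counting intervals of these TPM levels did not overlap between the libraries. With 0.5 added, an amount close to these levels that draws ratios toward 0, their log2 ratios were −0.43 and −0.47. The all-gene median, from genes that reached 1 TPM, was −0.46. With 0.1 added the ratios were −0.67 and −0.73, against an all-gene median of −0.49, so their nearness to the median depends on the amount added. By normalised counts *Igf2bp2* was 1.22-fold lower in *Fabp4*-/- (95% CI 0.90 to 1.64) and *Igf2bp3* 1.12-fold lower (95% CI 0.87 to 1.45). Both of the latter intervals include no difference, so the reading depends on the scale. The 3′ end of *Igf2bp3* overlaps *Malsu1*, a gene of mitochondrial ribosome assembly on the opposite strand, which was at 14.5 and 16.9 TPM. Of the 75-base stretches of *Igf2bp3* transcripts, 17.8% occur in those of *Malsu1*, so part of the few *Igf2bp3* reads could belong to it, which was not tested.

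Transcripts that IGF2BP proteins are known to bind had no common direction. Of 8 such genes, 5 reached 1 TPM, with 2 past 2-fold upward and 1 past 2-fold downward on both scales. Among all genes, 2.18% were past 2-fold upward and 14.2% downward by TPM, and 5.86% and 7.74% by normalised counts. *H19*, an imprinted noncoding RNA of the fetal liver, reached 75.3 TPM in WT against 595 TPM in *Fabp4*-/-, from 7092 and 64245 estimated read pairs. *Igf2*, its imprinted partner on chromosome 7 and the gene after which the family is named, was at 1.43 and 1.91 TPM. *H19* was thus 52.6 times as abundant as *Igf2* in WT and 311 times in *Fabp4*-/-. *Myc* was at 18.3 and 40.5 TPM, *Cd44* at 15.7 and 5.22 TPM and *Actb* at 929 and 926 TPM. *Hmga2*, a chromatin protein gene of the embryo, had 31 and 97 estimated read pairs, *Ptgs2* had 100 and 58, and *Lin28b* was listed at 0 in both.

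*Cd24a* (ENSMUSG00000047139.8, chromosome 10, 43579169 to 43584262, plus strand) encodes a small, heavily glycosylated surface protein anchored by a lipid. It had 18.3 TPM in WT against 4.10 TPM in *Fabp4*-/-, from 1382 and 355 estimated read pairs. The *Fabp4*-/- level was 4.47-fold lower by TPM and 3.03-fold lower by normalised counts (95% CI 2.69 to 3.41). Of all genes, 1.74% had a lower ratio by TPM and 3.65% by normalised counts.

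*Prom1* (ENSMUSG00000029086.15, chromosome 5, 43993620 to 44102032, minus strand), the gene of CD133, had 14.6 TPM in WT against 7.76 TPM in *Fabp4*-/-, from 942 and 505 estimated read pairs. This was 1.88-fold lower by TPM and 1.45-fold lower by normalised counts (95% CI 1.30 to 1.62), within 2-fold on both scales. In WT *Cd24a* was above *Prom1*, and in *Fabp4*-/- *Prom1* was at 1.89 times the TPM of *Cd24a*, with counting intervals that did not overlap in either library. *Prom2*, the paralog of *Prom1*, was at 3.92 and 6.80 TPM and so lay the other way.

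In bulk RNA, fewer cells of a type and less RNA per cell cannot be told apart, and both surface marker genes are transcribed by several cell types. Cholangiocytes express *Prom1* and *Cd24a*. Of 10 cholangiocyte markers 8 reached 1 TPM, with 1 past 2-fold upward and 3 past 2-fold downward on both scales and none at 0. Their summed level was 492 TPM in WT against 1003 TPM in *Fabp4*-/-, of which *Spp1*, a gene that other cells also express, made up 468 and 985 TPM. B cells express *Cd24a*, and all 7 B cell markers that reached 1 TPM were lower in *Fabp4*-/- on both scales, 5 of them at least 2-fold by TPM and 3 by normalised counts. Beside these counts, 14.2% of all genes were past 2-fold downward by TPM and 7.74% by normalised counts, and 2.18% and 5.86% upward. The 8 B cell markers summed to 36.1 TPM in WT against 11.3 TPM in *Fabp4*-/-, and none was at 0. Neutrophil markers summed to 46.5 and 60.8 TPM, and the 6 erythroid markers that reached 1 TPM were within 2-fold. The 10 T and NK cell markers summed to 54.4 and 6.48 TPM. The part of these cells in the *Cd24a* and *Prom1* ratios was not tested.

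*Scd2* (ENSMUSG00000025203.5, chromosome 19, 44293676 to 44306864, plus strand) encodes a stearoyl-CoA desaturase, which makes monounsaturated fatty acids, and it is the form of the fetal and newborn liver in mice. It had 42.5 TPM in WT against 63.5 TPM in *Fabp4*-/-, from 10394 and 17839 estimated read pairs. This was 1.49-fold higher by TPM and 2.21-fold higher by normalised counts (95% CI 2.16 to 2.26). Its ratio exceeded that of 95.7% of all genes by TPM and 95.2% by normalised counts, the highest place of the 7 measured members on both scales. *Scd1*, the form of the adult liver in the same gene cluster, was at 249 and 651 TPM, with log2 ratios of 1.39 and 1.95. *Scd1* was therefore 5.85 times as abundant as *Scd2* in WT and 10.3 times in *Fabp4*-/-. *Scd3* and *Scd4* stayed under 0.1 TPM in both libraries. Transcripts of *Scd2* share 1.45% of their 75-base stretches with *Scd1*, and how reads from these stretches were divided between the genes was not tested. Adipocytes and fibroblasts also express *Scd2*. The adipocyte genes *Adipoq*, *Plin1* and *Retn* had 1 estimated read pair each in WT and were at 0 in *Fabp4*-/-, *Lep* was at 0 in both. The other adipocyte markers, which reached 1 TPM, were *Cidec* at 42.3 and 31.6 TPM, *Pparg* at 12.5 and 7.79 TPM, *Lipe* at 7.18 and 7.23 TPM and *Cfd* at 1.24 and 1.66 TPM. All 8 adipocyte markers summed to 63.3 TPM in WT against 48.3 TPM in *Fabp4*-/-, and the 10 stellate cell and fibroblast markers summed to 305 and 227 TPM. The part of these cells in the *Scd2* ratio was not tested.

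**Figure D4:**
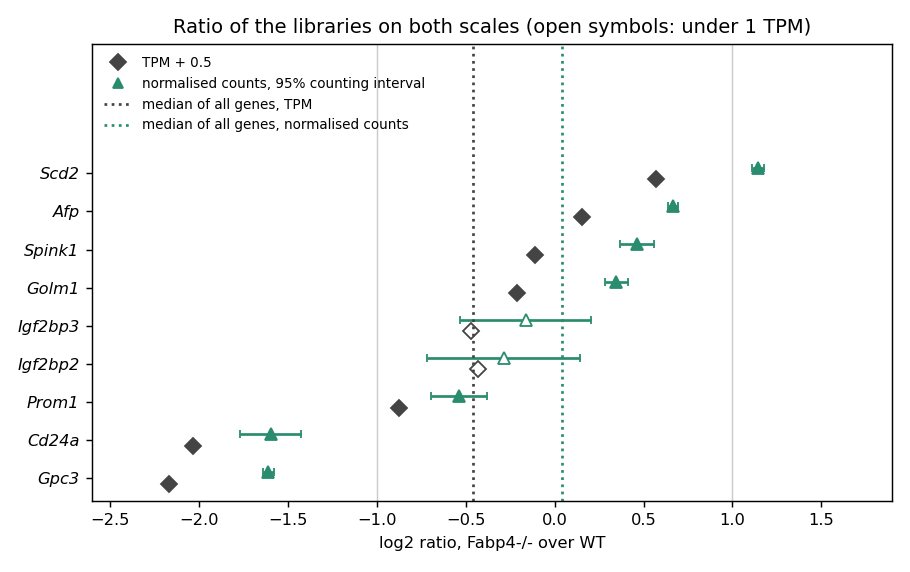
Log2 ratio of *Fabp4*-/- over WT for 9 members, with diamonds for (TPM + 0.5), triangles with a 95% counting interval for normalised counts, open symbols for members under 1 TPM, and dotted lines for the median of all genes on each scale. *Gpc3* and *Cd24a* lie beyond −1 on both scales, and *Scd2* lies beyond 1 by normalised counts only.

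By level, the members stood in the order *Gpc3*, *Afp*, *Spink1*, *Scd2*, *Golm1*, *Cd24a*, *Prom1*, *Igf2bp3*, *Igf2bp2* and *Igf2bp1* in WT. In *Fabp4*-/- the order was *Afp*, *Spink1*, *Gpc3*, *Scd2*, *Golm1*, *Prom1*, *Cd24a*, then *Igf2bp2* and *Igf2bp3* at the same level, and *Igf2bp1*. Neighbours in these orders differed beyond their counting intervals except *Igf2bp2* and *Igf2bp3*. The spread between tumors is not known for any of them.

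Other genes of the same kinds went both ways. Of 17 further oncofetal genes in the table, 8 reached 1 TPM, with 3 past 2-fold upward and 0 past 2-fold downward on both scales. The median log2 ratio of the 8 was 0.16 on the TPM scale and 0.82 on that of normalised counts. *H19* had the highest ratio of them. *Bex1*, a small signaling protein gene on chromosome X, had 15.1 TPM in WT against 55.0 TPM in *Fabp4*-/-, and *Hmga1*, a chromatin protein gene, at 39.9 and 25.5 TPM. *Sall4* and *Lin28b*, stem cell factors of the embryo, were listed at 0 in both libraries. Of 18 further liver cancer markers, 15 reached 1 TPM, where TPM placed 2 past 2-fold upward and 7 downward, and normalised counts 2 upward and 2 downward. Their log2 ratios had medians of −0.59 and −0.27 on these scales. For both lists the all-gene shares past 2-fold were 2.18% upward and 14.2% downward by TPM, and 5.86% and 7.74% by normalised counts. *Tff3*, a secreted trefoil peptide gene, reached 63.7 TPM in WT against 474 TPM in *Fabp4*-/-. Lower in *Fabp4*-/- were *Vil1*, the gene of the microvillus protein villin, at 6.14 and 0.27 TPM, and *Glul*, glutamine synthetase, at 475 and 73.4 TPM. *Lcn2*, which encodes an iron-scavenging protein, was at 2893 and 1042 TPM, *Ly6d* at 1326 and 575 TPM and *Spp1*, osteopontin, at 468 and 985 TPM.

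Of 14 further surface and cell markers of liver cancer stem cells, 13 reached 1 TPM. On the TPM scale 0 were past 2-fold upward and 5 downward, and on that of normalised counts 1 upward and 5 downward. The shares of all genes were 2.18% and 14.2% on the TPM scale, and 5.86% and 7.74% on that of normalised counts. The median log2 ratio of the 13 was −0.71 on the former scale and −0.36 on the latter. *Lgr5*, the gene of a receptor to which R-spondins bind, had 7.14 TPM in WT against 0.59 TPM in *Fabp4*-/-. The most abundant were *Anpep*, the gene of CD13, at 231 and 229 TPM, *Aldh1a1*, a retinal dehydrogenase gene, at 226 and 172 TPM, and *Cd47*, which encodes a signal against phagocytosis, at 68.7 and 42.9 TPM.

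**Figure D5:**
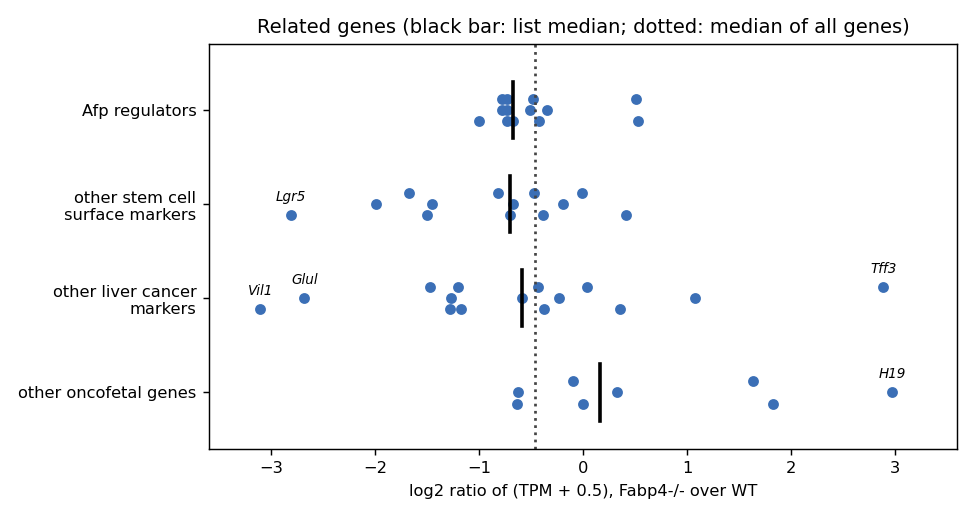
Log2 ratio of (TPM + 0.5), *Fabp4*-/- over WT, for measured genes of 4 related lists, 1 point per gene, with a black bar for the list median and a dotted line at the median of all genes. *H19* and *Tff3* lie at 2.97 and 2.89, and *Vil1*, *Lgr5* and *Glul* lie below −2.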

How the data were processed

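PolyA RNA of liver tumors was sequenced from both ends at 151 bases, 1 library per genotype. The build mm10 and the tools RSEM 1.2.31 and STAR 2.5.2 are named in the processing notes of the submitters. The TPM values were deposited by the authors and sum to 1000000 per library. The normalised counts, a signal on a read scale, were deposited by the authors as well. They were divided by their most frequent value above 0 (0.882 in WT, 1.13 in *Fabp4*-/-), taken as 1 read pair, to estimate read pairs. Of the values above 0, 86.0% and 86.5% were then whole to within 0.0001, and no count model of a difference between genotypes was fitted. For the intervals alone, estimated read pairs were rounded to whole numbers. The fold changes, direction, posterior probability and FDR columns hold the authors' own comparison and were not used. To both TPM values 0.5 was added before the ratio was taken, and genes under 1 TPM in both libraries were left out. Those by normalised counts had no pseudocount and kept the same genes. Exact binomial intervals of ratios and exact Poisson intervals of levels (95%) came from the estimated read pairs. The ratios and the binomial intervals were tested on simulated whole counts, drawn for both libraries from the WT levels with some genes changed by known folds. Both simulated libraries had the same scaling, so unequal scaling and values that are not whole were not tested.

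The members and the 23 lists (holding 201 gene symbols, written from textbook knowledge) were chosen with earlier results of these data known. Members were all named. Of lists of up to 8 genes all could be named, and of longer lists the 3 most abundant and those past 4-fold on both scales. List members outside this rule (*Zhx2*, *Zbtb20*, pancreatic and adipocyte genes, *Spink5*, *Sall4*) were chosen for naming with their values in view. The calculations were made with scipy 1.17.1, pandas 2.3.3 and numpy 2.4.6 in Python 3.11.15, and plots with matplotlib 3.10.9. Gene coordinates come from the deposited table. RefSeq windows are on GRCm38.p6, the assembly behind mm10, and transcripts came from GENCODE M21.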

Additional observations from a re-analysis of the deposited data

How the results depend on the processing

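No paired analysis was possible because neither WT nor knockout tumors were sequenced in more than 1 library, and no library could be left out for that reason. Of the 11 alternatives run, 6 changed the scaling or the pseudocount, and *Gpc3* and *Cd24a* were at least 2-fold lower under each of these. The others changed only the minimum level or the fold, which cannot alter the ratio of a gene. The members at least 2-fold higher, 0 by TPM, became 1 (*Scd2*) by normalised counts, with median centring and with upper quartile scaling, since these settings raise nearly all ratios. *Afp* and *Scd2* stayed above 0 and *Prom1* below 0 under the 6 scaling and pseudocount alternatives, with ranges of 0.15 to 0.67, 0.57 to 1.14 and −0.91 to −0.39. *Golm1* was above 0 in 3 of these 7 settings (main setting included), *Spink1* in 4 and *Igf2bp2* in 1. Of all genes, 296 were at least 2-fold higher and 1928 lower by TPM. These became 794 and 1049 by normalised counts, 625 and 670 with median centring, 637 and 804 with upper quartile scaling, 369 and 1387 without the 20 most abundant genes and 203 and 1083 with a minimum of 5 TPM. They were 568 and 5318 at 1.5-fold and 90 and 251 at 4-fold. Of 484 alternative counts for the lists, 409 stayed within 1.5 times and 75 did not. Counts that were 0 in the main setting and stayed 0 are among the 409, so this number is no measure of stability. At this depth the ratios of *Igf2bp2* and *Igf2bp3* are known only within wide intervals.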

Other observations

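Markers of dividing cells are often read beside oncofetal genes. Of 10 such genes, all 10 reached 1 TPM and 0 were past 2-fold in either direction on either scale, and their median log2 ratio was −0.17 on the TPM scale and 0.38 on that of normalised counts. Past 2-fold were 2.18% of all genes upward and 14.2% downward by TPM, and 5.86% and 7.74% by normalised counts. *Pcna*, the sliding clamp of DNA replication, had 25.2 TPM in WT against 22.0 TPM in *Fabp4*-/-, *Cdk1*, the mitotic kinase, at 7.86 and 10.1 TPM and *Top2a* at 6.83 and 4.91 TPM.

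The number of normalised counts per TPM depends on the scaling of both measures and on the transcript length that the authors' quantification assigned to a gene. It was 1.48 times as high in *Fabp4*-/- as in WT at the median of the 5192 genes with at least 10 TPM in both libraries. For the middle 90% of them it was between 1.27 and 1.59 times as high. The scaling is shared by all genes, so only the distance of a gene from this median can follow its assigned length. *Gpc3*, *Cd24a* and *Scd2* were at 1.48, and *Afp* was at 1.43. *Prom1*, which has 19 transcripts in GENCODE M21, was at 1.30, and 6.14% of the 5192 genes were below it. Whether the mixture of *Prom1* transcripts differed between the libraries was not tested.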
